A study of Hydra vulgaris with 32 samples.

Results

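Central body columns of the freshwater polyp Hydra were compared 7 days after the beginning of a hydroxyurea treatment with untreated columns of the same day. The comparison took 6 of the 32 libraries of the series, chosen by treatment and day: 3 hydroxyurea libraries and 3 control libraries, each with the replicate letters A, B and C. Both groups were animals of the thermosensitive mutant strain Sf-1, and both had been starved for 7 days when sampled. The hydroxyurea group had received 10 mM hydroxyurea in 3 periods of 24 h with pauses of 12 h between them, and the control group had received no treatment. The body column lacks the head and the foot, so cells of those ends were not sampled. The labels do not say how many animals made up a library or whether replicates came from separate cultures, so p-values measure the spread between these samples, which may be technical. The hydroxyurea and control groups of days 4, 5 and 11 were treated alike and starved for 4, 5 and 11 days, with 3 libraries each except for 4 in the control of day 11. Days are counted from the beginning of treatment, so the time from the hydroxyurea periods to sampling differed between the days. Heat shock (28 °C for 62 h, 4 libraries) and colchicine (0.4% for 8 h, 3 libraries) served as further groups. Their sampling fell on day 9 of treatment and at 11 days without food, and the control of day 11 was their control.

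Hydra is built from 3 cell lineages. The ectodermal and endodermal epithelial cells divide slowly, and the interstitial lineage, whose stem cells divide fast, gives rise to nerve cells, stinging cells (nematocytes), gland cells and germ cells. Hydroxyurea blocks ribonucleotide reductase, the enzyme that makes deoxyribonucleotides, and so stops DNA synthesis. Cells that cycle fast are the first to be affected, and the drug has long been used to deplete the interstitial lineage of Hydra while the epithelial cells survive. Differentiated cells of that lineage are no longer replaced and are lost with time. The series was set up to follow the transcriptome after such a depletion.

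Sequences carry the authors' own identifiers, which end in a number and a code and hold a locus number. Counts of all sequences with the same locus number were summed, which gave 25879 loci from 79774 sequences. Of these loci, 17107 were tested, and they held 99.96% of all counts. A further 2031 loci had 0 counts in all 6 libraries of day 7. None of the identifiers matched the RefSeq gene table of the assembly HydraT2T_AEP (0 matches among 28925 genes), so loci have no gene names here and the labelled tissue and lineages could not be checked against marker genes. At most 2 loci are named in each direction.

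The hydroxyurea libraries A, B and C held 33.1, 25.0 and 26.7 M (mega) counts, and the control libraries A, B and C held 34.4, 27.3 and 26.6 M. Replicate A was the deepest in both groups. Levels are given as CPM, the count divided by the scaled library total in M. Across loci, log2 CPM of replicates correlated with Pearson r of 0.983 in all pairs of hydroxyurea libraries and 0.980 to 0.984 in controls, and libraries of different groups correlated with r of 0.900 to 0.908. Loci are not independent replicates. One locus took 1.42%, 8.90% and 7.76% of the counts in the hydroxyurea libraries, and 0.626%, 0.996% and 12.8% in the control libraries. It varied within both groups and was not called between them (adjusted p = 0.912, edgeR), and library totals were scaled by TMM, a method that trims such extremes.

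On day 7 many loci differed between hydroxyurea and control columns, in both directions. The test called 2450 loci lower (14.3% of those tested) and 1953 higher (11.4%) in hydroxyurea columns, 4403 in all (25.7%). The changes were uneven in size: most were shifts of less than 2-fold, beside a set of 314 loci that kept under 5% of their control level and a smaller set of 32 loci that were at least 20-fold higher. Calls are loci with an adjusted p under 0.05 (Benjamini-Hochberg over all tested loci) in edgeR's quasi-likelihood test, fitted on all 32 libraries with 1 mean per group. In these bulk samples fewer cells of a type and less RNA per cell cannot be told apart. CPM is relative to the library total, so at higher loci a larger share of the cells and more RNA per cell cannot be told apart either. The median log2 fold change of hydroxyurea over control was -0.89 among the lower loci, 0.73 among the higher loci and 0.04 over all tested loci. A change of at least 2-fold was seen in 1106 of the lower loci (45.1%) and in 644 of the higher ones (33.0%). In 2434 of the lower loci every hydroxyurea library was below every control library, and in 1936 of the higher loci every hydroxyurea library was above every control library. Over all tested loci such separation was also frequent, downward in 4073 (23.8%) and upward in 3929 (23%).

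**Figure D1:**
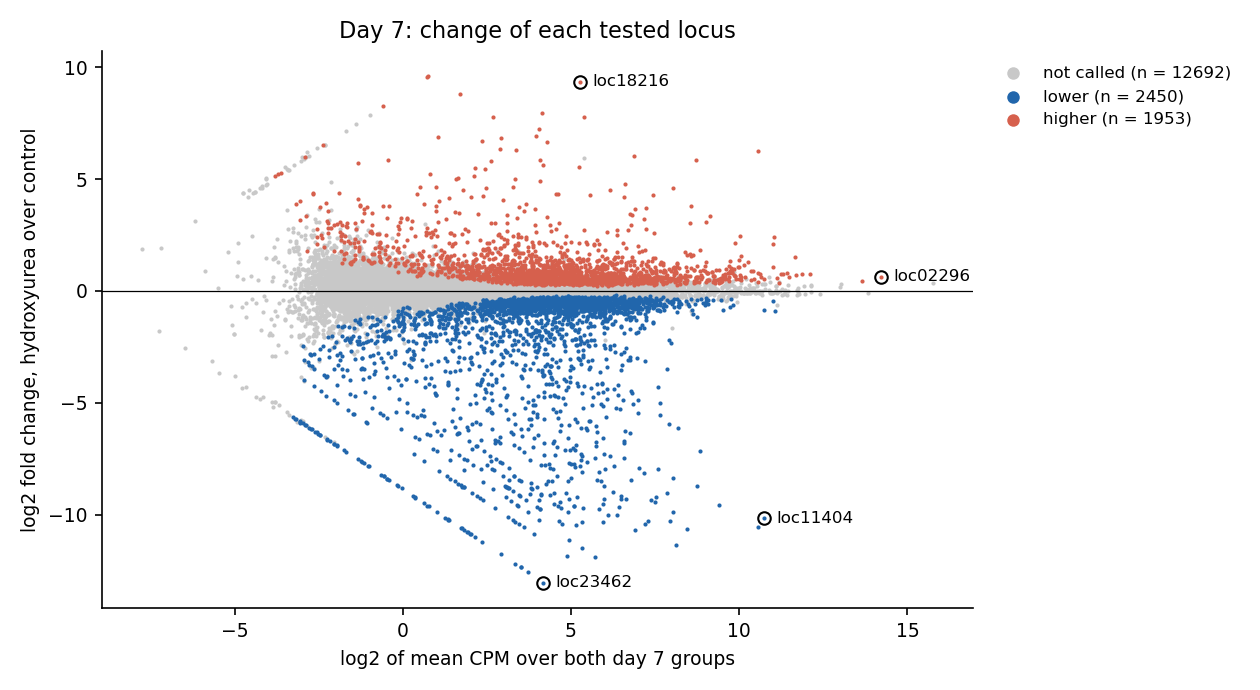
Each point is a tested locus, with the mean level in CPM over the 6 day 7 libraries (log2 scale) on the x axis and the log2 fold change of hydroxyurea over control on the y axis; 2450 lower loci are blue, 1953 higher loci are red, and the 4 named loci are circled. Large decreases occurred over a wide range of levels, up to loc11404 at the right, whereas loci with higher levels in hydroxyurea mostly lay close to 0; 12 tested loci with 0 counts on day 7 are not drawn.

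The lower loci fell into sets of very unequal depth of change. Among the 2036 lower loci with a control mean of at least 5 CPM, the level left in hydroxyurea columns (their mean as a percentage of the control mean) was 50% or more in 1284 loci (63.1%). A level of 5 to 50% was left in 438 loci, and 314 (15.4%) had under 5% left. In finer steps, 203 loci had under 1% left, 111 had 1 to 5%, 65 had 5 to 10%, 135 had 10 to 25%, 238 had 25 to 50%, 1016 had 50 to 75% and 268 had 75% or more. These classes were set by the day 7 values themselves, so their sizes describe the comparison and are not tested. The locus nearest to the 5% limit had 4.89% left on its inner side and 5.03% on its outer side.

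**Figure D2:**
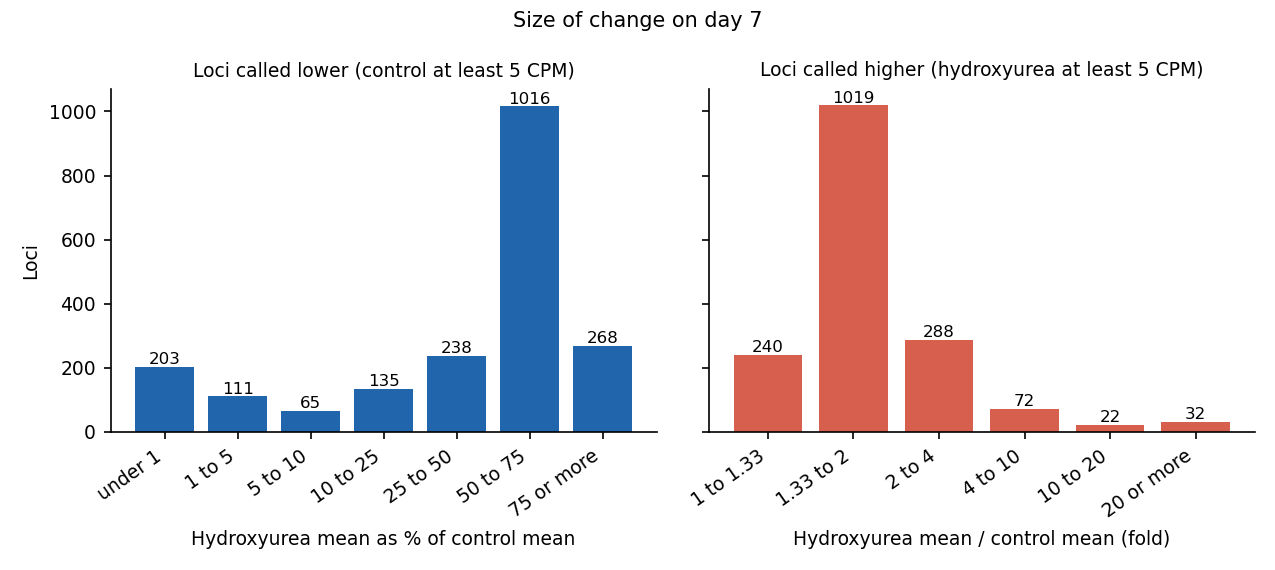
Bars count the called loci by size of change on day 7: on the left the lower loci by the percentage of the control mean left in hydroxyurea columns (control mean at least 5 CPM), on the right the higher loci by fold over control (hydroxyurea mean at least 5 CPM). The intervals are of unequal width; the tallest bars are 50 to 75% left (1016 loci) and 1.33 to 2-fold (1019 loci), and the bar under 1% left (203 loci) is taller than the next 3.

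The 314 loci with under 5% left were close to absent in all 3 hydroxyurea libraries. Their median level was 0.205 CPM in hydroxyurea columns and 34.2 CPM in control columns. The median percentage left was 0.523%, 0.488% and 0.441% in hydroxyurea libraries A, B and C. The choice of the class by these same libraries largely fixes such low values. The median SD of log2 CPM over the hydroxyurea libraries was 0.364 at these loci and 0.163 over all tested loci. Of these loci, 18 had 0 counts in all 3 hydroxyurea libraries, and 103 had at most 3 counts in each of them. A library with 0 counts of a locus is still compatible with 3 counts, or 0.0725 to 0.123 CPM by library, as far as counting error goes. A level of 1 CPM was reached by 69, 61 and 62 of these loci in hydroxyurea libraries A, B and C, against 314 in each control library. Loci with high control levels were among them: 73 had a control mean of at least 100 CPM. In these 73 loci the hydroxyurea libraries lay between 0 and 13.2 CPM and the control libraries between 76.7 and 3837 CPM, with a median of 0.403% left and a range of 0.0217% to 4.77%.

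The share of all reads shows how the classes weigh in the transcriptome. The lower loci held 6.78 ± 0.372% of the counts in hydroxyurea columns and 15.8 ± 1.15% in control columns (SD, n = 3 each). The 314 most reduced loci held 0.0269 ± 0.00306% in hydroxyurea columns, against 3.48 ± 0.294% in control columns (SD, n = 3 each). The loci with 5 to 50% left held 0.660 ± 0.0505% and 2.55 ± 0.185%, and those with 50% or more left held 6.06 ± 0.315% and 9.69 ± 0.728% (hydroxyurea and control, SD, n = 3 each). Of the difference of -9.03 percentage points between the groups, 38.2% lay in the 314 most reduced loci and 40.2% in the 1284 loci with 50% or more left. Near-complete decreases in few loci and mild decreases in many thus made up similar parts of it, and 158 loci together made up 50%.

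The lower locus with the largest log2 fold change among 1394 that met the naming rule was loc23462, which holds 1 sequence. It had 0, 0 and 0 CPM in hydroxyurea libraries A, B and C, against 35.3, 35.5 and 37.6 CPM in control libraries A, B and C. The controls lay close together and far from every hydroxyurea library, and the naming rule admitted only loci with separate groups. Set against the floor of 3 counts per library, the hydroxyurea level was at least 334-fold lower. The adjusted p was 6.77e-11 in edgeR, and the fitted log2 fold change of -13.03 depends on the prior count because 1 group is at 0. Hydroxyurea libraries of day 4 already had at most 10 counts of this locus, with 0.197 ± 0.101 CPM against 32.5 ± 0.611 CPM in controls of that day (SD, n = 3 each). On day 5 the means were 0.0806 and 34.5 CPM, and on day 11 they were 0.0228 and 28.5 CPM, in hydroxyurea and control columns. Every hydroxyurea library of the 4 days had less than 1 CPM of it.

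The lower locus with the largest difference in mean level was loc11404, also with 1 sequence. It had 2.12, 3.57 and 3.19 CPM in hydroxyurea libraries A, B and C, against 2522, 3837 and 3773 CPM in control libraries A, B and C. The mean of 2.96 ± 0.754 CPM in hydroxyurea columns was 0.0877% of the mean of 3377 ± 741 CPM in control columns (SD, n = 3 each). The log2 fold change was -10.17 with a standard error of 1.24 (adjusted p = 3.06e-07, edgeR). Unlike loc23462, this locus still had much RNA on the earlier days. On day 4 its level was 1007 ± 64.1 CPM in hydroxyurea columns (25.3% of the control of that day), and on day 5 it was 410 ± 80.3 CPM (10.3% of control). On day 11 they had 3.49 ± 1.46 CPM (0.0939% of control), a value within the spread of the day 7 libraries (SD, n = 3 for each day). The change of the log2 fold change between the days was tested directly: it was lower on day 7 than on day 4 by a log2 difference of -8.18 (adjusted p = 0.000686, edgeR) and than on day 5 by -6.89 (adjusted p = 0.0141, edgeR). The day 7 libraries in these tests also chose the locus, which favours a larger effect on day 7. The day 5 call was lost without hydroxyurea day 7 replicate A, B or C (adjusted p = 0.0796, 0.0653 and 0.0738, edgeR), and fitting only replicates B, C and D lost both (adjusted p = 0.395 for day 5 and 0.0826 for day 4). The difference kept its sign in all 21 alternatives for each day.

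Most higher loci rose by less than 2-fold. Among the 1673 higher loci with a hydroxyurea mean of at least 5 CPM, 240 were 1 to 1.33-fold, 1019 were 1.33 to 2-fold, 288 were 2 to 4-fold, 72 were 4 to 10-fold, 22 were 10 to 20-fold and 32 were at least 20-fold above control. The higher loci as a whole held 28.8 ± 0.897% of the counts in hydroxyurea columns and 17.8 ± 1.26% in control columns (SD, n = 3 each). Of this gain of 11.0 percentage points, 59.0% lay in the loci raised by less than 2-fold and 4.88% in those raised by at least 20-fold. The gain was concentrated in few loci, since 48 loci together made up 50% of it, fewer than the 158 that made up 50% of the loss. The 32 loci raised most held 0.548 ± 0.0170% of the counts in hydroxyurea columns and 0.0104 ± 0.00456% in control columns (SD, n = 3 each). Their single libraries lay between 3.46 and 3188 CPM in hydroxyurea and between 0 and 60.4 CPM in controls. In each of the 32 loci all hydroxyurea libraries were above all control libraries, which the choice of the class largely fixes. The locus of this class with the most reads, which the naming rule did not choose, had 3188, 2478 and 3179 CPM in hydroxyurea libraries A, B and C, against 14.9, 42.8 and 60.4 CPM in control libraries A, B and C. Its mean was 74.9-fold above that of the controls.

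The higher locus with the largest log2 fold change among 1166 that met the naming rule was loc18216, whose 3 sequences were all called higher. It had 36.1, 128 and 66.3 CPM in hydroxyurea libraries A, B and C, against 0.0967, 0.102 and 0.157 CPM in control libraries A, B and C, which are 4, 3 and 4 counts. The groups were far apart, although the naming rule already required them to be separate. The hydroxyurea libraries differed from each other by more than 3-fold. The ratio of pooled levels was 624, with an exact 95% interval of 348 to 1250 for counting error. The log2 fold change was 9.33 with a standard error of 1.59 (adjusted p = 5.83e-05, edgeR; 0.0457 in the alternative with the weakest evidence). The locus was high in hydroxyurea on the other days as well, where hydroxyurea columns averaged 39.7 ± 23.1, 46.1 ± 33.9 and 21.4 ± 21.1 CPM on days 4, 5 and 11 (SD, n = 3 for each day) and control columns averaged 0.323, 0.183 and 0.0769 CPM. The hydroxyurea libraries of these days overlapped with those of day 7, and a difference in effect between day 7 and another day was not called for this locus (edgeR, lowest adjusted p = 0.955).

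The higher locus with the largest difference in mean level was loc02296, with 1 sequence. It had 23081, 21697 and 24545 CPM in hydroxyurea libraries A, B and C, against 14227, 15354 and 15559 CPM in control libraries A, B and C. The groups did not overlap, which the naming rule required, and the hydroxyurea mean was 1.54-fold above the control mean. The log2 fold change was 0.62 with a standard error of 0.119 (adjusted p = 0.000223, edgeR). It belongs to the loci raised by less than 2-fold, which carried most of the gain in reads. In hydroxyurea columns it had 142%, 145%, 154% and 168% of the level of the same-day control on days 4, 5, 7 and 11.

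**Figure D3:**
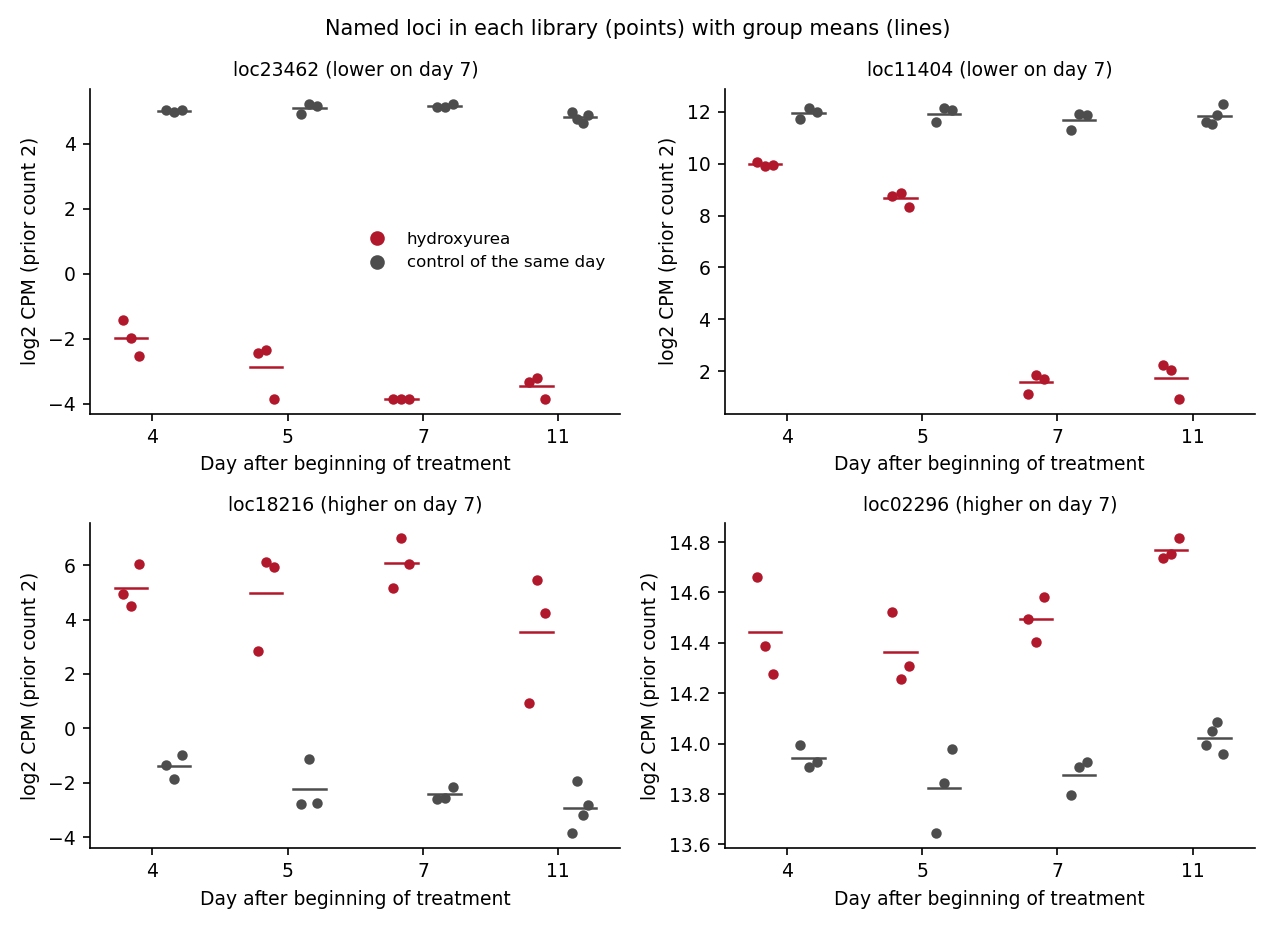
Points are the log2 CPM (prior count 2) of the 4 named loci in each library of days 4, 5, 7 and 11, hydroxyurea in red on the left and the control of the same day in grey on the right of each day, and lines are group means. The panels show loc23462 under 1 CPM in hydroxyurea from day 4, loc11404 with an intermediate level on days 4 and 5 and 2.12 to 3.57 CPM on day 7, loc18216 high on all days with a wide spread, and loc02296 with a small upward shift on every day.

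The same loci were then read on the other days, which have hydroxyurea and control libraries of their own and share none with day 7. Day 4 had 1882 lower loci (11% of those tested) and 1234 higher ones (7.21%), day 5 had 2221 (13%) and 1507 (8.81%), and day 11 had 2341 (13.7%) and 2231 (13%). Of the loci lower on day 7, 1505 were lower on day 4, which is 61.4% of the day 7 calls and 80.0% of the day 4 calls. The corresponding numbers were 1751 loci on day 5 (71.5% and 78.8%) and 1952 on day 11 (79.7% and 83.4%). Of the loci higher on day 7, 939 were higher on day 4 (48.1% of the day 7 calls and 76.1% of those of day 4), 1110 on day 5 (56.8% and 73.7%) and 1560 on day 11 (79.9% and 69.9%). Calls in opposite directions were rare. Of the day 7 lower loci 1 was higher on day 4, 1 on day 5 and 0 on day 11, and of the day 7 higher loci 1 was lower on day 4, 0 on day 5 and 0 on day 11. On all 4 days 1349 loci were lower and 760 higher. On day 7 and on no other day 552 loci were called, and 327 of them had an unadjusted p under 0.05 with the same sign on at least 1 other day.

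The size classes set on day 7 had different courses over the days. The 314 loci with under 5% left on day 7 had a median of 12.8% of the control level on day 4, 5.37% on day 5, 0.474% on day 7 and 0.399% on day 11. They held 0.669 ± 0.125%, 0.286 ± 0.0692%, 0.0269 ± 0.00306% and 0.0272 ± 0.00409% of the counts in hydroxyurea columns on days 4, 5, 7 and 11 (SD, n = 3 each), while controls of the same days held 4.10%, 3.69%, 3.48% and 3.75%. The day 7 share differed from that of day 11 by less than the SD, and every day 7 library was below every day 5 library. The milder classes changed far less between days. Loci with 5 to 50% left on day 7 had medians of 39.1%, 31.8%, 26.8% and 24.6% on days 4, 5, 7 and 11, and loci with 50% or more left had 77.7%, 74.6%, 68.4% and 74.0%. Loci raised by less than 2-fold had medians of 129%, 134%, 149% and 144%. The 32 loci raised by at least 20-fold had medians of 1161%, 1311%, 5518% and 4751%, and on each of days 4, 5 and 11 a locus with a control mean of 0 was left out (31 values). These 32 loci held 0.437%, 0.358%, 0.548% and 0.439% of the counts in hydroxyurea columns on days 4, 5, 7 and 11. Controls of the same days held 0.0472%, 0.0312%, 0.0104% and 0.0123%, so the share in controls was also lower on the later days. In each class the day 7 value is the one that chose it, so the class median is favoured on that day; the values of days 4, 5 and 11 come from other libraries.

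The 314 loci were also split by their own levels on the earlier days, so the medians of days 4, 5 and 7 below follow from the split and those of day 11 do not. Of these loci, 88 (28.0%) were already under 5% on day 4, 61 (19.4%) passed that limit by day 5, and 165 (52.5%) had 5% or more left on days 4 and 5. The 165 late loci had medians of 21.9% on day 4, 11.1% on day 5, 0.767% on day 7 and 0.520% on day 11. The early 88 loci had medians of 1.93%, 0.804%, 0.247% and 0.274% on the same days. Of the 314 loci, 21 had 50% or more left on day 4 and 3 on day 5. The direct test of day 7 against day 5 called 85 of the 165 late loci, against 0.637% of all tested loci, with the libraries that also chose them.

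**Figure D4:**
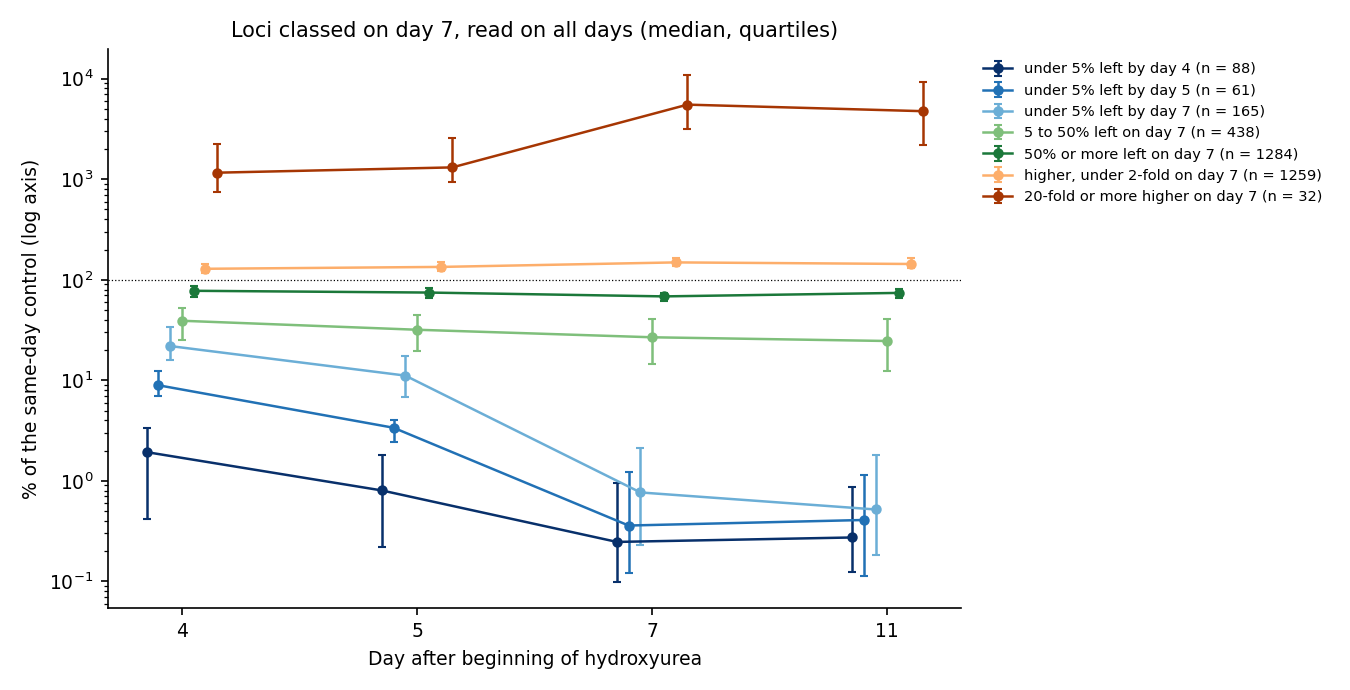
The y axis (log scale) gives the level in hydroxyurea columns as a percentage of the same-day control on days 4, 5, 7 and 11, points are medians over the loci of a class and bars are quartiles; classes were set on day 7, and the 3 blue lines split the 314 loci with under 5% left by the day on which they passed that limit. By the way they were split, the blue lines differ on days 4 and 5; on day 11, which the split did not use, their medians lie between 0.274% and 0.520%, and the lines of the milder classes stay nearly level.

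Sets were also chosen by levels and calls of other libraries than those of day 7, although dispersions were estimated over all libraries. On day 11, 341 lower loci had under 5% of the control level left, and 308 of them were in the day 7 set of 314 (98.1% of the day 7 set and 90.3% of the day 11 set). On day 7 the 341 loci had a median of 0.610% left, and 341 of them were called lower, against 14.3% of all tested loci. Of the 29 loci raised at least 20-fold on day 11, 29 were called higher on day 7, against 11.4% of all tested loci. Their median on day 7 was 5763% of control. The 230 loci that had under 5% left both after heat shock and after colchicine had medians of 9.77%, 3.83%, 0.301% and 0.256% on days 4, 5, 7 and 11 of hydroxyurea, and 228 of them were under 5% on day 7. The day 11 median used the same control libraries as the choice of these loci. Read in the opposite direction, the 314 loci had a median of 3.98% of the control level left after heat shock and 0.909% after colchicine. The heat shock libraries differed in this value, with 0.631%, 11.5%, 2.05% and 0.693% in libraries A, B, C and D, so replicate B kept more than the others.

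The difference between the effect on day 7 and on the other days was tested for every locus, each day against its own control. Relative to day 4, 349 loci (2.04%) had a different effect on day 7, 304 of them lower on day 7 and 45 higher. The 304 loci had medians of 23.3% of control on day 4, 11.5% on day 5, 0.886% on day 7 and 0.745% on day 11, of which the day 5 and day 11 values were not used in the test. The 45 loci were of mixed kind: 23 were not called on day 4 and higher on day 7, 8 were higher and 9 lower on both days, and 4 were lower on day 4 and not called on day 7. Of the 377 loci lower on day 4 and not lower on day 7, 5 were among the 45, so for most of them a return towards control was not shown. Relative to day 5, 109 loci (0.637%) differed, 105 of them lower on day 7 and 4 higher. The 105 loci had medians of 30.4% on day 4, 16.6% on day 5, 0.397% on day 7 and 0.323% on day 11, of which the day 4 and day 11 values were not used in the test. Their number rested on all 3 hydroxyurea libraries of day 7, since 0 loci passed when any 1 of A, B and C was left out, with 1150, 881 and 947 loci at an unadjusted p under 0.05. It was 31 and 65 without hydroxyurea day 5 replicates A and B, 45, 40 and 40 without control day 5 replicates A, B and C, and 49 without control day 7 replicate B or C. Fitting only replicates B, C and D left 0 calls relative to day 5 and to day 4, and leaving out single libraries gave 254 to 324 calls relative to day 4.

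Between day 7 and day 11 the test called 0 loci (0%) in edgeR. At an unadjusted p under 0.05 there were 502, and DESeq2 called 7 and voom with library quality weights called 18. A locus that misses the threshold here may still differ.

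**Figure D5:**
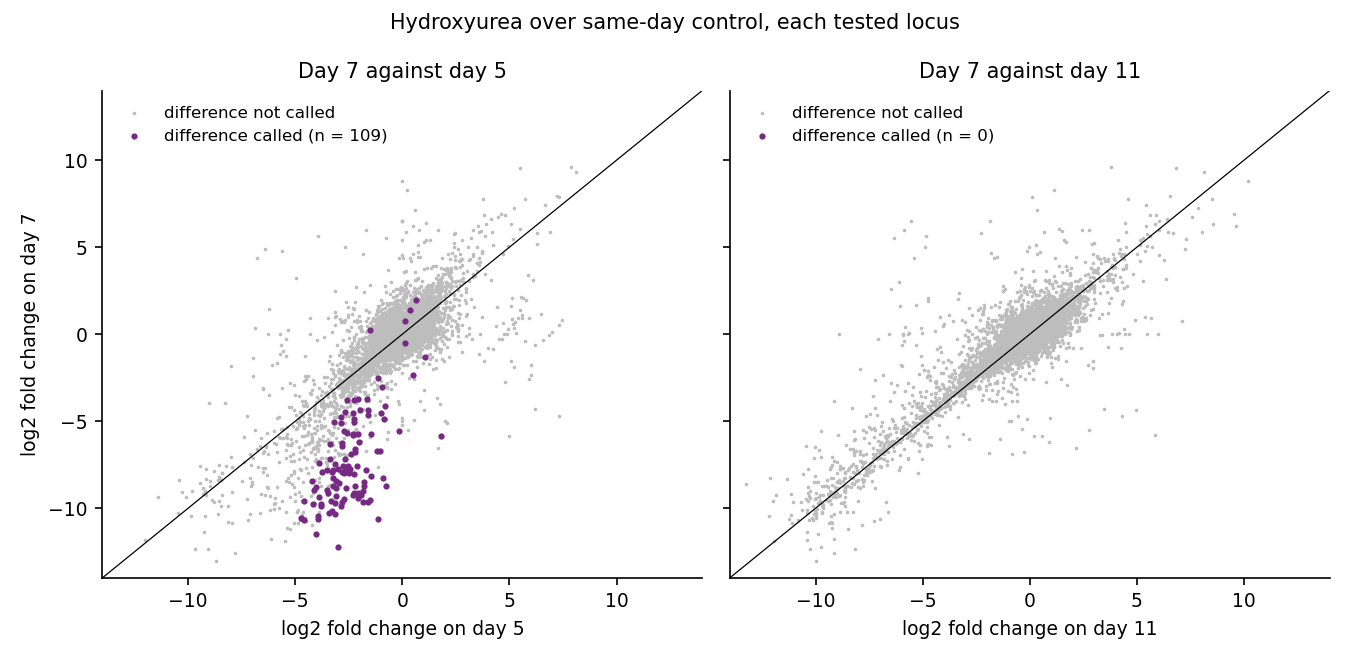
Each point is a tested locus, with the log2 fold change of hydroxyurea over control on day 7 on the y axis and that of day 5 (left) or day 11 (right) on the x axis; the diagonal marks equal effects, and purple points are loci whose effects differed between the days. On the left 109 loci differ, 105 of them below the diagonal, and on the right 0 do.

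The controls were also compared between days, at 7 and 4 days of starvation, a comparison in which starvation and time cannot be told apart. Control columns of day 7 differed from control columns of day 4 in 18 loci (0.105%), 3 higher and 15 lower, and 930 loci had an unadjusted p under 0.05 in edgeR. The count was 4 to 10 when any 1 of these 6 libraries was left out, 177 when only these groups were fitted and 356 with voom.

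Loci changed in libraries of other days or treatments were followed on day 7, beside all tested loci, of which 14.3% were lower and 11.4% higher. The 1882 loci lower on day 4 had a median log2 fold change of -0.91 on day 7, with 1505 lower and 1 higher, and shifts in log2 CPM from the control mean of -0.91, -0.91 and -0.89 in hydroxyurea libraries A, B and C. The 1234 loci higher on day 4 had a median of 0.73, with 939 higher and 1 lower. The 1884 loci lower after both heat shock and colchicine had a median of -1.20 on day 7, with 1410 lower and 2 higher. The 1695 loci higher after both had a median of 0.62, with 1172 higher and 3 lower. Heat shock called 2460 loci lower (14.4%) and 2502 higher (14.6%), and colchicine called 4371 lower (25.6%) and 3713 higher (21.7%), both against the control of day 11. Lists that ask for both treatments leave out loci on which they differ. Taken singly, colchicine called 89 of the day 7 lower loci higher and 113 of the day 7 higher loci lower. For heat shock these numbers were 7 and 3. Of the colchicine calls, 39.5% of the lower and 39.2% of the higher ones were shared with day 7. Limiting the lists to loci with a change of at least 2-fold in the other libraries gave day 7 medians of -3.12 for day 4 lower, 1.85 for day 4 higher, -2.41 for both treatments lower and 1.71 for both treatments higher.

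Single sequences were tested as well, since a read that fits several sequences of a locus can be assigned to any of them. Of 38606 tested sequences, 5431 were called (14.1%), of which 3476 were lower (9%) and 1955 higher (5.06%) in hydroxyurea columns. In the 314 loci with under 5% left, 662 of 765 tested sequences were lower and 2 higher, and in 113 of the 177 loci with several tested sequences all of them were lower. In the loci with 50% or more left, 1367 of 3877 sequences were lower (35.3%), and in 32 of 925 loci with several tested sequences all were lower. These are counts within classes that the same libraries chose. The classes also differed in make-up: the median number of sequences was 2 at the 314 loci and 4 at the mildly lower ones, and 34.4% and 17.2% of them held 1 sequence, against 32.4% of all tested loci. A further 308 lower and 148 higher sequences belonged to loci whose sum was not called, and at 39 of these loci sequences were called in both directions.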

How the data were processed

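PolyA RNA of central body columns was sequenced from directional TruSeq libraries, per the labels' protocols. The table deposited by the authors holds whole-number read counts per sequence. The submitters' processing notes name cutadapt 1.11, Salmon 0.7.2 and DESeq2 without roles, so the counts may be rounded estimates. The genome build and the origin of the sequence set are not given in the sources used here. The authors also deposited a normalized signal, equal to the count times 1 constant per library, which gave the size factors of an alternative. Sample titles carry day numbers lower by 1 than the labelled days, and the labelled days were used.

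Counts were summed per locus number and tested with edgeR 4.0.16 in R 4.3.3: quasi-likelihood F-test with robust dispersions, TMM factors, filterByExpr with a minimum of 10 counts, and 1 mean per group over all 32 libraries in 10 groups (22 residual degrees of freedom). Benjamini-Hochberg adjustment covered all tested loci, with a threshold of 0.05. Standard errors are the absolute log2 fold change divided by the square root of F. CPM uses TMM-scaled totals, and log2 CPM a prior count of 2. Day 7 totals were 25.0 to 34.4 M (mega) counts. Intervals and floors of 3 counts cover counting error only, as reads are not independent molecules. The fit was tested on simulated counts.

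No pair of replicates agreed within sampling noise, since their chi-square per degree of freedom was at least 18.4. Deviations from group means of same-letter hydroxyurea and control libraries correlated across loci with 0.359, 0.133 and 0.195 for A, B and C. Libraries of unlike letters correlated with -0.246 to 0.0511. Deviations from a group mean sum to 0, so the values of unlike letters follow in part from those of the same letters. Replicate A was also the deepest in both groups. The letters were treated as a possible pairing, which the labels do not state and these values cannot settle. The main fit had no term for the letters, and a pairing by letter entered only as the replicate block, an alternative. Named loci were those called on day 7 with separate groups and at least 20 CPM in the higher group: in each direction the one with the largest log2 fold change and the one with the largest difference in mean CPM. The members and lists were chosen with earlier results of these data known. Alternatives were median-of-ratios factors, the authors' factors, no filter, DESeq2 1.42.0, limma 3.58.1 voom, other library sets, a replicate block and single libraries left out. The counts of loci under 5% or over 20-fold, and their minimum of 5 CPM, and the differences of loc11404 between days were examined under alternatives chosen after seeing the data.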

Additional observations from a re-analysis of the deposited data

Results flagged for a closer look

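The difference of the hydroxyurea effect between days stood out in counts and in 1 named locus. Tested directly in edgeR, the effect differed from that of day 5 at 109 loci and from that of day 4 at 349 loci. The 109 fell to 0 without any 1 hydroxyurea library of day 7, and both counts were 0 when only replicates B, C and D were fitted. For loc11404 the log2 fold change was lower on day 7 by -6.89 relative to day 5 and by -8.18 relative to day 4, and every hydroxyurea library of day 7 (2.12 to 3.57 CPM) was below every one of day 5 (320 to 473 CPM) and day 4 (951 to 1077 CPM). The day 7 libraries also chose this locus. The difference from day 5 was not called for this locus in 4 of 21 alternatives, and that from day 4 in 1 of 21, with the same sign throughout.

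In CPM, a heat shock library stood apart for 2 of the named loci, replicate B for 1 of them and replicate A for the other. For loc11404 heat shock libraries A, B, C and D had 10.5, 516, 84.9 and 18.2 CPM, and the gap of B to its nearest neighbour was 0.853 of the range. For loc18216 libraries A, B, C and D had 110, 17.0, 5.21 and 3.15 CPM, and the gap of A was 0.871 of the range. In all, 8 sets of 4 libraries were examined. Normally distributed values give such a gap in about 1 of 20, and CPM on the linear scale need not be normally distributed. In log2 CPM, libraries A, B, C and D had 3.40, 9.01, 6.41 and 4.19 for loc11404. For loc18216 they had 6.79, 4.09, 2.40 and 1.69, and on this scale the libraries were spread more evenly at both loci. The heat shock libraries are in no day 7 group, but they enter the dispersions of the joint fit. With only the day 7 groups fitted, the standard error of the day 7 log2 fold change was 0.282 in place of 1.24 for loc11404 and 0.809 in place of 1.59 for loc18216, and both calls held. That fit left out all other groups at once, and no fit left out the heat shock libraries alone. The part of the heat shock libraries in the standard errors was not tested.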

How the results depend on the processing

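The counts of lower and higher loci on day 7 (2450 and 1953) stayed within 1.5 times under most alternatives, ranging over single libraries left out from 2029 to 2309 and from 1385 to 1717. They were 3727 and 3323 with voom and library quality weights, and 1106 and 644 when a change of at least 2-fold was also asked for. Loci with under 5% left numbered 263 to 346 and loci raised at least 20-fold 26 to 39 over all alternatives, and leaving out single libraries gave 306 to 321 and 30 to 39. The 4 named loci kept their direction and their call in 15 of 15 alternatives each. With the replicate letter as a block, 2646 loci were lower and 2148 higher, 87 differed from day 5, 350 from day 4, 0 between days 11 and 7 and 20 between controls. The replicate block moved none of these counts by over 1.5 times and changed no call of the 4 named loci on day 7 or of loc11404 between days (adjusted p = 0.0299 relative to day 5 and 0.00201 relative to day 4, edgeR).

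Tests of differences between days depended on the fit. The count relative to day 5 (109) was 44 without the filter, 223 with DESeq2, 471 with voom, 414 with only the compared groups, 0 when only replicates B, C and D were fitted, and 0 to 119 without single libraries. The count relative to day 4 (349) was 993 with voom, 787 with only the compared groups, 574 without colchicine and 0 when only replicates B, C and D were fitted, where 1555 loci had an unadjusted p under 0.05 (1197 relative to day 5). The count between days 11 and 7 (0) was 7 with DESeq2, 18 with voom, 2 with only the compared groups and 1 without colchicine. The count between controls of days 7 and 4 (18) was 62 with DESeq2, 356 with voom, 177 with only the compared groups, 43 without colchicine, 2 in replicates B, C and D alone and 4 to 10 without single libraries. The cause of these shifts was not tested. A fit without 1 library of a group of 3 has fewer samples. Other scalings moved the median of all loci by under 0.1 (log2), from 0.04 to 0.03 with median-of-ratios factors and 0.02 with the authors' factors.

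Loci have no gene names here, CPM is not corrected for length, and at low counts only large changes are detectable at this depth.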

Other observations

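Some classes of loci were compared by neighbourhood in locus number, and what the order of these numbers reflects is not given in the sources used here. Of the loci with under 5% left whose next number was also tested, 23 of 207 (11.1%) were followed by another such locus, and that class makes up 1.84% of all tested loci. For all lower loci 20.2% were followed by a lower locus, against 14.3% lower among all tested loci, and for higher loci 17.2% were followed by a higher one, against 11.4%. Of the loci raised at least 20-fold 0 of 18 were followed by another, but that class makes up only 0.187% of all tested loci, so the 0 says little. Over 11691 pairs of consecutive numbers the log2 fold changes correlated with Pearson r of 0.106. These are descriptions across loci, with no test.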
